A study of Mus musculus with 9 samples.

Results

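The 34 genes described here are the p53 family, the regulators of p53 and a set of its target genes, chosen by name from the 47593 gene rows of the count table. In order of role they were 3 family members (Trp53, Trp63, Trp73), 5 regulators of p53, 7 genes of growth arrest and mitosis, 3 of metabolism and autophagy, 11 of cell death and 5 of DNA repair. The RNA came from entire medulloblastomas of C57BL/6J mice that carried an Atoh1-cre (Math1-Cre) transgene, which is active in granule neuron progenitors of the cerebellum, and a ROSA26 allele that expresses SmoM2, a constitutively active Smoothened fused to EYFP, after recombination. The 3 control tumours were labelled Cdk6+/+ and the other 6 were labelled Cdk6-/-, so that Cdk6, a kinase that drives entry into S phase with D-type cyclins, was either intact or deleted, and all 9 shared the Cre and the SmoM2 allele. The labels give neither the age nor the treatment of the mice, nor whether tumours with the same number shared a litter, and the p-values below measure the spread between these samples.

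p53 is a transcription factor that is held at a low level in unstressed cells by the ubiquitin ligase Mdm2 and its partner Mdm4. DNA damage, oncogene activity or ribosomal stress releases it, and it then binds pairs of half-sites near genes that stop the cell cycle, repair DNA or kill the cell; several of those genes, Mdm2 and Ppm1d among them, turn p53 down again. In mice, loss of Trp53 speeds the growth of medulloblastomas driven by Hedgehog signalling.

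Promoter windows from RefSeq on build GRCm38.p6, from 250 bases before to 50 bases after a transcription start, were matched by symbol for 26 of the 34 genes. The p53 half-site consensus, which reads the same on both strands, occurred in the windows of 12 of those 26 genes (46.2%), against 9.55% of all 27025 symbols with a window. A full site, here a pair of half-sites with at most 13 bases between them, was found in the window of none of the 26 genes and of 20 symbols in all (0.0740%). No window was matched for Trp63, Trp53inp1, Zmat3, Perp, Tnfrsf10b, Ddb2, Xpc and Rrm2b. A match is a description of the letters and not a site shown to bind p53. The stretches around the match are given for Trp53 itself, for Mdm2, Ccng1 and Ppm1d as regulators of p53, for Sesn1, and for both matches of Rps27l, the gene with the largest log2 fold change in size when all 9 libraries were used, each 5′ to 3′ on the strand of the gene and with the half-site in capitals.
Trp53, chr11:69580239-69580338, plus strand: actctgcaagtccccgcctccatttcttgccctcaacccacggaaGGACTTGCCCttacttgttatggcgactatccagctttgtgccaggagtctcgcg
Mdm2, chr10:117710890-117710989, minus strand: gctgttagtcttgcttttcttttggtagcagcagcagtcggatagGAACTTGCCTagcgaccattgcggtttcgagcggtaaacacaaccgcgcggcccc
Ccng1, chr11:40755417-40755516, minus strand: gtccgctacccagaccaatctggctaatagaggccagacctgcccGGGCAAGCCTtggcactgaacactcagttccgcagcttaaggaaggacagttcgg
Ppm1d, chr11:85311077-85311176, plus strand: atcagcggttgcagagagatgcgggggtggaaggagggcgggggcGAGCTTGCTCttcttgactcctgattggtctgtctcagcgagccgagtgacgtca
Sesn1, chr10:41887221-41887320, plus strand: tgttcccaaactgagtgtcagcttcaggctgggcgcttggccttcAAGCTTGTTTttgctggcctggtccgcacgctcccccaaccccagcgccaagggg
Rps27l, distal match, chr9:66946193-66946222, plus strand: ctttgggctcGGGCTTGCTTtccttcaggc
Rps27l, proximal match, chr9:66946296-66946325, plus strand: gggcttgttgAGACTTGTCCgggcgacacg
The first base of the half-site lay 75 bases before the start in Trp53, 186 in Mdm2, 185 in Ccng1, 132 in Ppm1d, 173 in Sesn1, and 210 and 107 in Rps27l. Mdm2, Sesn1 and Rps27l have further starts, and only the windows in the RefSeq table were searched. The stretches of Sesn1 and Rps27l lie inside these genes as counted, which begin at chr10:41810574 and chr9:66946086, and outside their exons. The other genes with a half-site in a window were Aen, Ei24, Gadd45a, Gtse1, Pml and Polk.

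Library totals ran from 21386685 to 56837204 counts, and each Cdk6+/+ library was deeper than each Cdk6-/- library. Levels are given as CPM, counts per 1e6 counts of the library after scaling by trimmed mean of M values (TMM). Cdk6 itself had 561, 550.2 and 562 CPM in the control tumours, and Cdk6-/- tumours 1 to 6 had 214, 562, 269.7, 464, 2.16 and 350.5 CPM (log2 fold change -0.85, SE 0.93, edgeR adjusted p = 0.672). The labels do not say which part of Cdk6 was deleted and the counts cover all its exons, so these levels do not check the genotypes, and the groups are called by their labels. Cdk6-/- tumours 1 and 5 stood apart: the summed level of 6 mature granule neuron markers was 3561 and 4562 CPM there, against 250 to 637 CPM in the other 7 libraries, and the summed level of 8 dividing-cell markers in tumour 5 was 2.61 CPM, against 1680 to 2468 CPM in the other 8. Of the defining markers, Atoh1 was at 0.0442 CPM and Mki67 at 0.398 CPM in tumour 5, and the 5 Purkinje cell markers summed to 8671 CPM there. The counts of genes called, and the fold changes of genes given in full, are therefore also given without these tumours, which was decided with the values in view. Y-linked genes had counts in Cdk6-/- tumours 2 to 5 and were at or near 0 in the other 5 libraries, so sex by these genes was partly confounded with the genotype label. Xist, which is expressed from an inactive X chromosome, was at 1581 to 2085 CPM in the Cdk6+/+ libraries and at 1755 CPM in tumour 6. In tumour 1 it was at 131 CPM, and in tumours 2 to 5 at most 0.957 CPM. The libraries without Y-linked counts are therefore not shown to share a sex. The summed level of 5 microglia and macrophage markers was 237 to 248 CPM in the Cdk6+/+ and 55.0 to 159 CPM in the Cdk6-/- libraries, and that of 5 red cell markers 65.9 to 111 against 0.534 to 7.998 CPM. In whole tumours, fewer cells of a type and less RNA per cell cannot be told apart.

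None of the 33 genes tested passed an adjusted p of 0.05 between the groups, against 5.19% of all 18356 genes tested, 2.76% higher and 2.43% lower in the Cdk6-/- libraries (edgeR's quasi-likelihood test, Benjamini-Hochberg adjustment over all genes). An unadjusted p under 0.05 was reached by 2 of them, Rps27l and Xpc, and by 19.3% of all genes tested. DESeq2, run without the filter on low counts, called both of these and 9.15% of the 31626 genes it tested. With limma-voom, 0 of 33 and 6.23% of all 18356 genes were called. After adding Y-linked expression as a covariate, 0 of 33 were called (0.463% of all genes). The libraries without Y-linked counts were the 3 Cdk6+/+ tumours and only Cdk6-/- tumours 1 and 6. In these, 2 were called, Rps27l and Trp63 (4.53% of all genes), where Trp63 had 3 and 2 counts in the Cdk6-/- tumours. With all 9 libraries, the median log2 fold change, Cdk6-/- minus Cdk6+/+, was 0.24 over the 33 genes and 0.16 over all genes tested. Of the 33 values, 25 were positive and 8 negative (75.8% positive, against 59.9% of all genes tested). The groups did not overlap for 2 of the 33 genes (6.06%), Xpc, higher in the Cdk6-/- libraries, and Rps27l, lower, where 15.5% of all genes tested did not overlap (7.56% higher and 7.98% lower). Without Cdk6-/- tumours 1 and 5, 3 of the 33 genes were called (9.09%): Xpc was higher and Rps27l and Trp63 were lower, against 14.3% of all genes tested in that fit (8.12% higher and 6.14% lower). The groups were then apart for 8 of the 33 genes (24.2%): Mdm2, Tigar, Phlda3, Xpc and Ercc5 were higher and Trp63, Rps27l and Rrm2b lower, against 29.3% of all genes tested (14.5% higher and 14.9% lower). Gdf15, a secreted stress factor of the TGF-beta family, was not tested: its 9 libraries held 0 to 5 counts each, or at most 0.224 CPM, and the count of 0 in tumour 5 allows a level of up to 0.133 CPM.

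**Figure D1:**
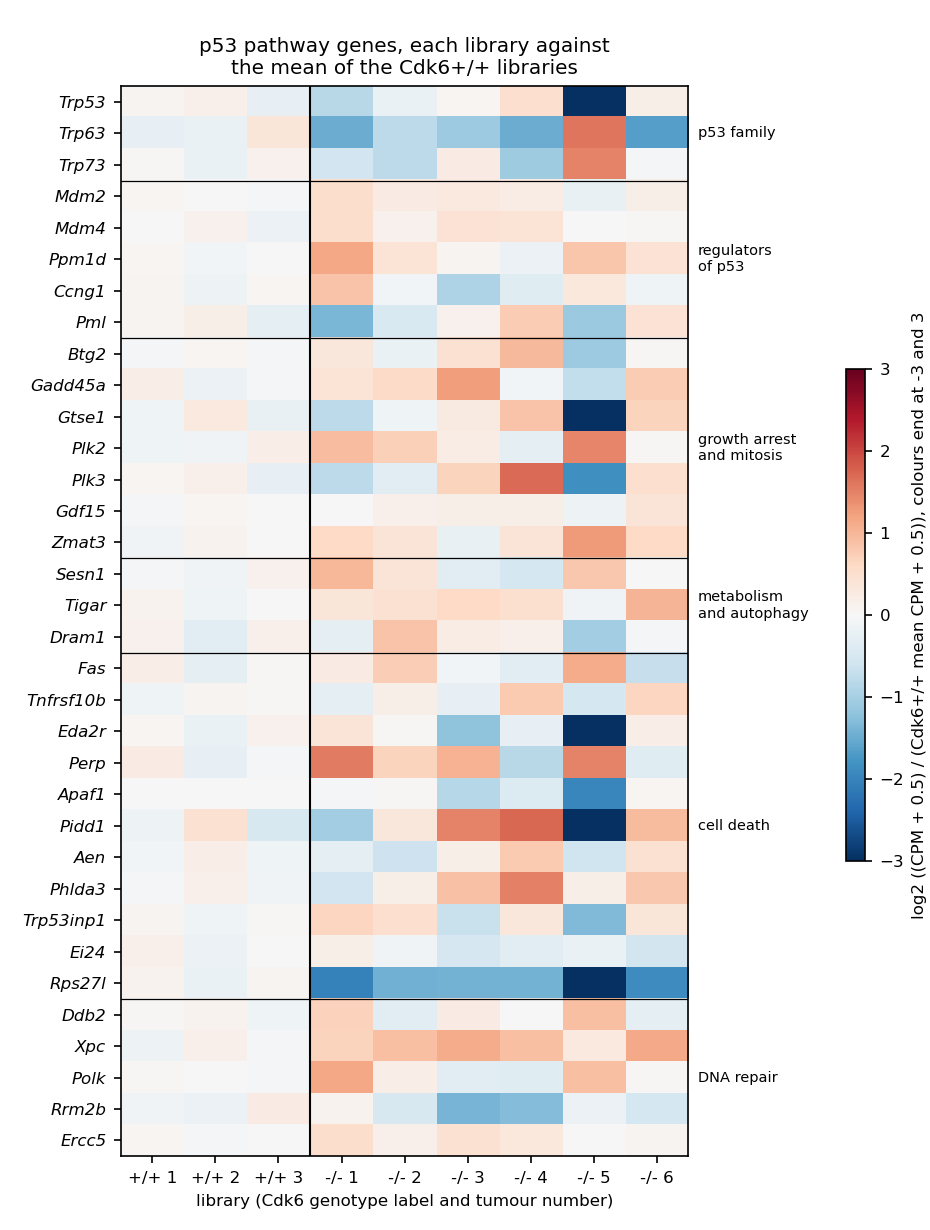
Level of each of the 34 genes (rows, grouped by role) in each of the 9 libraries (columns), as log2 of (CPM + 0.5) over the mean Cdk6+/+ CPM + 0.5; red is above that mean and blue below, and colours end at -3 and 3. Rps27l is blue in all 6 Cdk6-/- columns and Xpc red in all 6, while most other rows hold both colours, and tumour 5 reaches the end of the blue scale in Trp53, Gtse1, Eda2r, Pidd1 and Rps27l.

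None of the 3 genes of the p53 family passed the test with all libraries. Trp53 stood at 119.5, 126 and 95.5 CPM in the Cdk6+/+ tumours and at 63.5, 99.0, 118, 160.2, 11.7 and 129 CPM in Cdk6-/- tumours 1 to 6. The groups overlapped, with tumour 5 far below all others and tumour 4 above all others. The log2 fold change was -0.23 (SE 0.58, edgeR adjusted p = 0.871), and without tumours 1 and 5 it was 0.16 (SE 0.20, adjusted p = 0.630). Of the exon sequence of Trp53, 3.95% of its 50-base stretches also occur in another gene, most often the pseudogene Trp53-ps. Reads from such stretches can be counted for either gene. Trp63, a p53 relative that directs the growth of stratified epithelia, was scarce, at 1.06, 1.12 and 1.92 CPM in the Cdk6+/+ tumours and at 0.160, 0.589, 0.370, 0.165, 5.21 and 0.0896 CPM in Cdk6-/- tumours 1 to 6. All Cdk6-/- tumours except tumour 5 were below each Cdk6+/+ tumour, and tumour 5 was above them all. The log2 fold change moved from -0.32 (SE 1.13, edgeR adjusted p = 0.912) to -2.12 (SE 0.59, adjusted p = 0.0418) without tumours 1 and 5. The call without tumours 1 and 5 rested on 179 Cdk6+/+ and 37 Cdk6-/- counts, and tumour 5 alone held 118. Trp73, which acts in neural development, was as scarce, from 0.634 to 0.932 CPM in the Cdk6+/+ and from 0.124 to 3.14 CPM in the Cdk6-/- libraries, with tumour 5 again highest. The summed Purkinje cell markers, at 726 to 1406 CPM in the Cdk6+/+ libraries and 67.4 to 422 CPM in Cdk6-/- tumours 1, 2, 3, 4 and 6, were ordered between the groups like Trp63 and were highest in tumour 5, as Trp63 was. The same held for the summed 5 astrocyte markers, at 2184 to 2281 CPM against 809 to 1574 CPM and 3594 CPM in tumour 5, and for the summed 5 oligodendrocyte markers, at 1134 to 2949 CPM against 194 to 984 CPM and 3217 CPM in tumour 5. The part of these cells in the result was not tested.

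**Figure D2:**
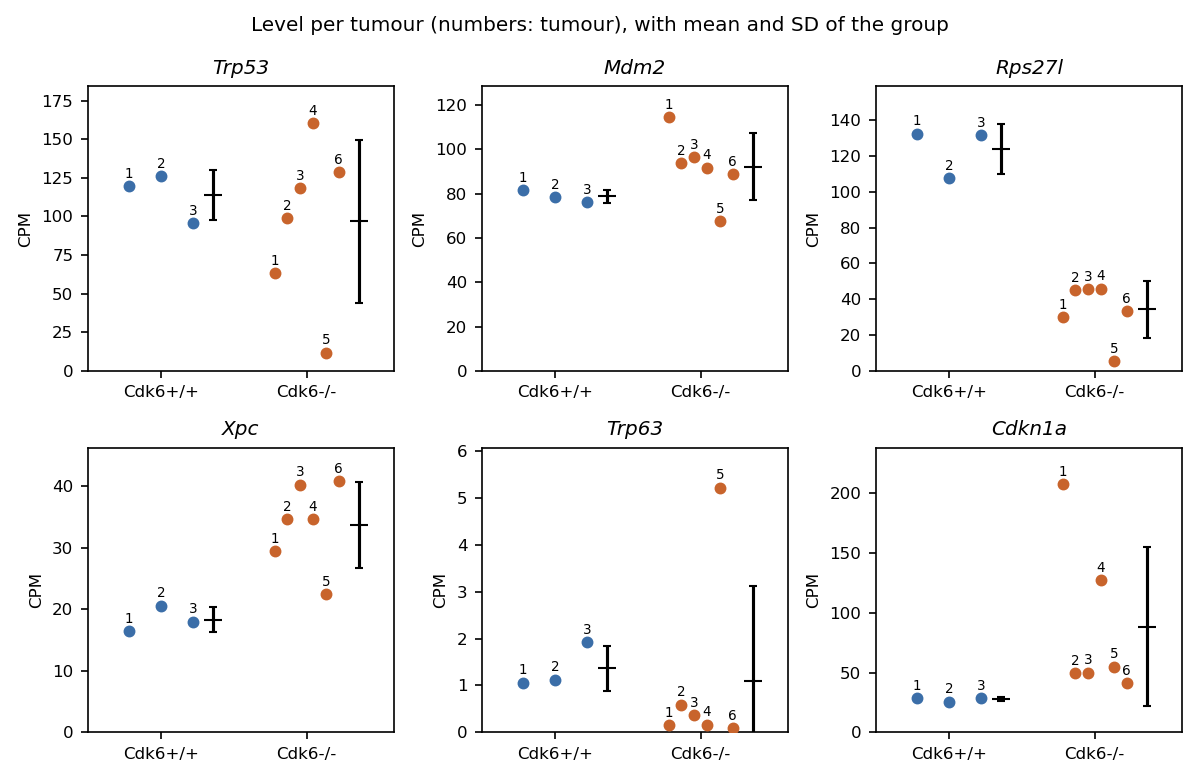
Level in CPM (vertical axis, from 0) of 6 genes in each tumour, by genotype label; points are tumours with their number, and the bar is the group mean with its SD (n = 3 and n = 6), drawn down to 0 at most. The groups are apart for Rps27l, Xpc and Cdkn1a, and overlap for Trp53, Mdm2 and Trp63; in Mdm2 and Trp63 they do so through tumour 5 alone.

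None of the 5 regulators of p53 passed the test in either fit. Mdm2, the ubiquitin ligase that marks p53 for degradation and is itself a p53 target, stood at 81.7, 78.5 and 76.1 CPM in the Cdk6+/+ tumours and at 115, 93.7, 96.5, 91.8, 67.5 and 88.9 CPM in Cdk6-/- tumours 1 to 6. All but tumour 5 were above each Cdk6+/+ tumour, by a small margin, and tumour 5 was below all of them. Its log2 fold change was 0.23 (SE 0.21, edgeR adjusted p = 0.609) and 0.24 without tumours 1 and 5 (SE 0.15, adjusted p = 0.302). Mdm4, the Mdm2 relative that blocks activation of transcription by p53, stood at 193, 210.2 and 169 CPM in the Cdk6+/+ tumours and at 273, 210.1, 258, 255, 189 and 197 CPM in the Cdk6-/- tumours, so that the groups overlapped. Its log2 fold change was 0.27 (SE 0.22, edgeR adjusted p = 0.555) and also 0.27 without tumours 1 and 5 (SE 0.18, adjusted p = 0.325). Ppm1d, a phosphatase that switches p53 signalling off, ran from 56.7 to 63.0 CPM in the Cdk6+/+ and from 53.4 to 134 CPM in the Cdk6-/- libraries, with tumours 1 and 5 highest. Ccng1, cyclin G1, ran from 71.1 to 82.8 CPM against 41.0 to 143 CPM, also with tumours 1 and 5 highest. Pml, the scaffold of nuclear bodies in which p53 is modified, ran from 24.0 to 33.2 CPM against 11.01 to 50.2 CPM, with tumours 1 and 5 lowest.

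The genes of growth arrest and mitosis had positive fold changes in all 6 tested, with a median log2 fold change of 0.46, and none passed the test. Of all genes tested, 59.9% were positive, with a median of 0.16. With limma-voom 5 of the 6 were positive, and on tumours 1 to 3 with a replicate block 4 of the 6. Gtse1, a microtubule-bound protein of G2 and mitosis that moves p53 out of the nucleus, stood at 22.6, 30.7 and 21.1 CPM in the Cdk6+/+ tumours and at 14.2, 22.7, 30.2, 45.4, 0.353 and 39.8 CPM in Cdk6-/- tumours 1 to 6. Tumour 5, in which the dividing-cell markers were close to absent, was lowest and tumour 4 highest. The log2 fold change of Gtse1 was 0.04 (SE 0.87, edgeR adjusted p = 0.988) and 0.48 without tumours 1 and 5 (SE 0.27, adjusted p = 0.250). Plk3, a stress-responsive polo-like kinase, stood at 18.3, 19.6 and 14.7 CPM against 9.94, 13.9, 28.3, 58.0, 4.55 and 24.9 CPM. The Cdk6-/- tumours lay on both sides of the controls, with a log2 fold change of 0.41 (SE 0.65, edgeR adjusted p = 0.786) and 0.84 without tumours 1 and 5 (SE 0.41, adjusted p = 0.196). In its relative Plk2, which also acts at synapses, tumours 5 and 1 were highest at 42.5 and 28.9 CPM, against 12.1 to 25.0 CPM in the other Cdk6-/- and 13.7 to 17.1 CPM in the Cdk6+/+ tumours. Btg2, an inhibitor of proliferation in neural progenitors, ran from 46.9 to 50.6 CPM in the Cdk6+/+ and from 22.2 to 94.7 CPM in the Cdk6-/- tumours. Gadd45a, a stress sensor, ran from 12.5 to 16.5 against 8.31 to 34.3 CPM, and 19.1% of its exon bases lie opposite the gene E230016M11Rik. No source used here tells whether strand was used in counting, so reads of such pairs may be mixed. Zmat3, an RNA-binding zinc finger protein, ran from 64.2 to 74.5 against 59.8 to 169 CPM, with tumour 5 highest and 5 of the 6 Cdk6-/- tumours above every control.

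Of the 3 genes of metabolism and autophagy, none passed the test. Tigar, which lowers glycolytic flux, ran from 29.6 to 34.6 CPM in the Cdk6+/+ libraries, and all Cdk6-/- tumours except tumour 5, at 29.996 CPM, were above that range, at 41.9 to 65.8 CPM. Its log2 fold change was 0.51 (SE 0.26, edgeR adjusted p = 0.319) and 0.67 without tumours 1 and 5 (SE 0.20, adjusted p = 0.0510). Sesn1, an inhibitor of mTORC1 signalling, ran from 93.8 to 109.8 CPM in the Cdk6+/+ tumours; Cdk6-/- tumours 1 and 5 were highest, at 202 and 176 CPM, and the other 4 ran from 70.0 to 133 CPM. Dram1, a lysosomal protein that promotes autophagy, was low, from 1.07 to 1.66 CPM against 0.442 to 3.06 CPM.

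Among the 11 genes of cell death, Rps27l had the largest log2 fold change, in size, of all 33 tested with all libraries; without tumours 1 and 5 that of Trp63 was larger. Rps27l, a relative of the small-subunit ribosomal protein Rps27 that binds Mdm2, stood at 132, 107.7 and 132 CPM in the Cdk6+/+ tumours and at 29.9, 45.2, 45.8, 45.9, 5.61 and 33.4 CPM in Cdk6-/- tumours 1 to 6. Every Cdk6-/- tumour was below every Cdk6+/+ tumour, with tumour 5 lowest. Its mean was 124 ± 14.1 CPM in the controls (SD, n = 3) against 34.3 ± 15.7 CPM (SD, n = 6). This gave a log2 fold change of -1.85 (SE 0.48, edgeR adjusted p = 0.0549), just outside the threshold. Without tumours 1 and 5 it was -1.54 (SE 0.18, adjusted p = 0.00124), and DESeq2 on all 9 libraries gave an adjusted p of 0.00865. Over all alternatives the edgeR, DESeq2 and limma-voom adjusted p ran from 0.00124 to 0.307, the highest after adding Y-linked expression as a covariate, where the log2 fold change was -1.95. Of the 50-base stretches of its exons, 11.2% also occur in another gene, most often Gm14706. Library depth and the microglia and red cell markers were also lower in every Cdk6-/- library, and their part in this result was not tested.

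Pidd1, the scaffold that activates caspase-2, stood at 11.8, 18.2 and 9.25 CPM in the Cdk6+/+ tumours and at 6.04, 16.6, 37.4, 44.0, 0.751 and 25.7 CPM in Cdk6-/- tumours 1 to 6. Tumours 3, 4 and 6 were above every control, and tumours 1 and 5 below. The log2 fold change was 0.73 (SE 0.89, edgeR adjusted p = 0.709), and 1.25 without tumours 1 and 5 (SE 0.37, adjusted p = 0.0503). Eda2r, a receptor of the ectodysplasin A2 ligand encoded on the X chromosome, stood at 72.3, 59.6 and 75.0 CPM against 90.2, 70.5, 29.7, 58.0, 2.16 and 78.7 CPM, with tumour 5 at the bottom and a log2 fold change of -0.33 (SE 0.74, edgeR adjusted p = 0.854), or -0.22 without tumours 1 and 5 (SE 0.30, adjusted p = 0.642). Phlda3, an inhibitor of Akt, ran from 3.60 to 4.36 CPM in the Cdk6+/+ libraries and stood at 4.49 to 12.1 CPM in Cdk6-/- tumours 2, 3, 4 and 6, at 2.46 CPM in tumour 1, below every control, and at 4.46 CPM in tumour 5. Its log2 fold change was 0.72 (SE 0.48, edgeR adjusted p = 0.460) and 1.02 without tumours 1 and 5 (SE 0.35, adjusted p = 0.0851). Apaf1, the core of the apoptosome, was even among the controls, at 64.6 to 66.3 CPM, and ran from 16.5 CPM in tumour 5 to 68.1 CPM in the Cdk6-/- tumours. The death receptors Fas and Tnfrsf10b were low, at 1.03 to 4.82 and 0.795 to 2.72 CPM over all 9 libraries. Perp, a membrane protein of desmosomes, ran from 2.05 to 3.06 CPM in the Cdk6+/+ and from 1.19 to 8.28 CPM in the Cdk6-/- tumours. Aen, an apoptosis-enhancing nuclease, ran from 16.2 to 20.1 against 11.3 to 30.6 CPM, and Trp53inp1, a stress-induced nuclear partner of p53, from 152 to 174 against 66.2 to 260.0 CPM. Ei24, a membrane protein of the endoplasmic reticulum needed for autophagy, ran from 149.95 to 187 against 116 to 190.4 CPM; 9.31% of its exon bases lie opposite Gm26787.

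**Figure D3:**
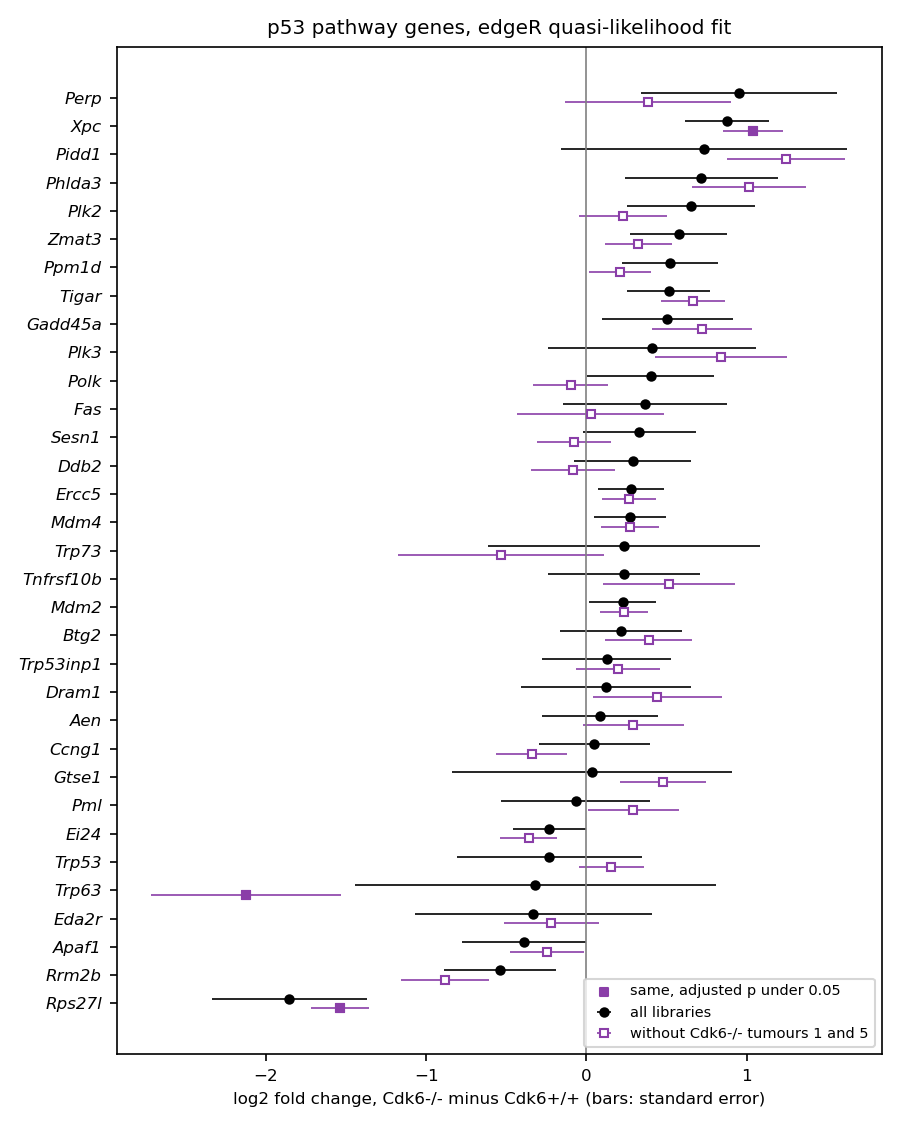
Log2 fold change, Cdk6-/- minus Cdk6+/+ (horizontal axis), of the 33 genes tested, with bars of 1 standard error: black circles use all 9 libraries and purple squares leave out Cdk6-/- tumours 1 and 5, filled where the adjusted p was under 0.05. The filled squares are Xpc, at 1.04, and Rps27l and Trp63, at -1.54 and -2.12.

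Of the 5 genes of DNA repair, Xpc, which recognises DNA damage in nucleotide excision repair, was higher in all Cdk6-/- tumours. It stood at 16.4, 20.6 and 18.0 CPM in the Cdk6+/+ tumours and at 29.4, 34.6, 40.2, 34.6, 22.4 and 40.8 CPM in Cdk6-/- tumours 1 to 6. Every Cdk6-/- tumour was above every Cdk6+/+ tumour, tumour 5 by the least. Its mean was 18.3 ± 2.10 CPM in the controls (SD, n = 3) against 33.7 ± 6.93 CPM (SD, n = 6). This gave a log2 fold change of 0.88 (SE 0.26, edgeR adjusted p = 0.0866). Without tumours 1 and 5 it was 1.04 (SE 0.19, adjusted p = 0.00761), DESeq2 gave an adjusted p of 0.0123 on all libraries, and over all alternatives the adjusted p ran from 0.00761 to 0.366. Ddb2, its partner in damage recognition, ran from 7.07 to 8.38 CPM in the Cdk6+/+ and from 6.07 to 15.1 CPM in the Cdk6-/- libraries, where tumours 1 and 5 were highest; 23.8% of its exon bases lie opposite Acp2. Ercc5, the endonuclease that cuts on the 3′ side of the damage, ran from 41.8 to 44.98 CPM in the Cdk6+/+ and from 43.7 to 62.3 CPM in the Cdk6-/- libraries, and 5 of the 6 were above every control. The translesion polymerase Polk ran from 13.8 to 14.8 against 11.04 to 32.8 CPM, with tumours 1 and 5 highest. Rrm2b, the p53-induced subunit of ribonucleotide reductase, ran from 33.5 to 44.9 against 14.2 to 40.9 CPM. Its log2 fold change was -0.54 (SE 0.35, edgeR adjusted p = 0.447) and -0.88 without tumours 1 and 5 (SE 0.28, adjusted p = 0.0614). Of the 50-base exon stretches of Rrm2b, 10.7% also occur in another gene, most often Gm49085.

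Within the Cdk6-/- group, tumours 1 and 5, which stood apart by their markers, were set against the other 4. In 8 of the 33 genes tested (24.2%, against 17.2% of all genes tested) tumours 1 and 5 were both above the other 4 Cdk6-/- tumours: Ppm1d, Ccng1, Plk2, Sesn1, Perp, Ddb2, Polk and Rrm2b. In 11 genes (33.3%, against 18.0% of all genes tested) they were both below: Trp53, Pml, Gtse1, Plk3, Tigar, Dram1, Tnfrsf10b, Pidd1, Phlda3, Rps27l and Xpc. The comparison of these tumours was chosen after their marker levels and the levels of these genes were seen and is a description without a test. Leaving them out changed the sign of the fitted log2 fold change in 7 of the 33 genes: it turned negative in Trp73 (from 0.24 to -0.53), Ccng1 (from 0.05 to -0.34), Sesn1 (from 0.33 to -0.07), Ddb2 (from 0.29 to -0.08) and Polk (from 0.40 to -0.10), and positive in Trp53 (from -0.23 to 0.16) and Pml (from -0.07 to 0.29). In Perp it went from 0.95 to 0.38, in Plk2 from 0.66 to 0.23, in Ppm1d from 0.52 to 0.21, in Zmat3 from 0.58 to 0.32 and in Fas from 0.36 to 0.03, and none of these 12 genes passed the test in either fit. Against the controls, tumour 1 had 19 of the 33 genes above and 12 below every Cdk6+/+ library, where all genes tested gave 43.1% and 39.2%. Tumour 2 had 17 above and 9 below (36.1% and 36.7%), tumour 3 had 16 and 12 (41.8% and 41.7%), and tumour 4 had 17 and 14 (42.7% and 42.7%). Tumour 6 had 19 above and 7 below (41.4% and 35.9%). Tumour 5 alone had more of these genes below the controls than above them, 13 above and 16 below (44.2% and 43.5%).

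Per length of exon, the order of the genes in the Cdk6+/+ tumours was led by Rps27l, at a mean of 152 CPM per 1000 bases, followed by Ei24 at 48.6, Sesn1 at 30.3, Trp53 at 28.1 and Trp53inp1 at 25.6. The mean of Rps27l in the Cdk6-/- tumours was 42.1 CPM per 1000 bases, next to 41.5 for Ei24 and 38.1 for Sesn1. At the bottom stood Tnfrsf10b at 0.430, Trp63 at 0.163, Trp73 at 0.145 and Gdf15 at 0.0290 CPM per 1000 bases. Of the 33 pairs of neighbours in this order, 23 overlapped in their Cdk6+/+ tumours, Sesn1 and Trp53 among them, and 10 did not, among them Rps27l and Ei24, Ei24 and Sesn1, Tnfrsf10b and Trp63, and Trp73 and Gdf15.

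**Figure D4:**
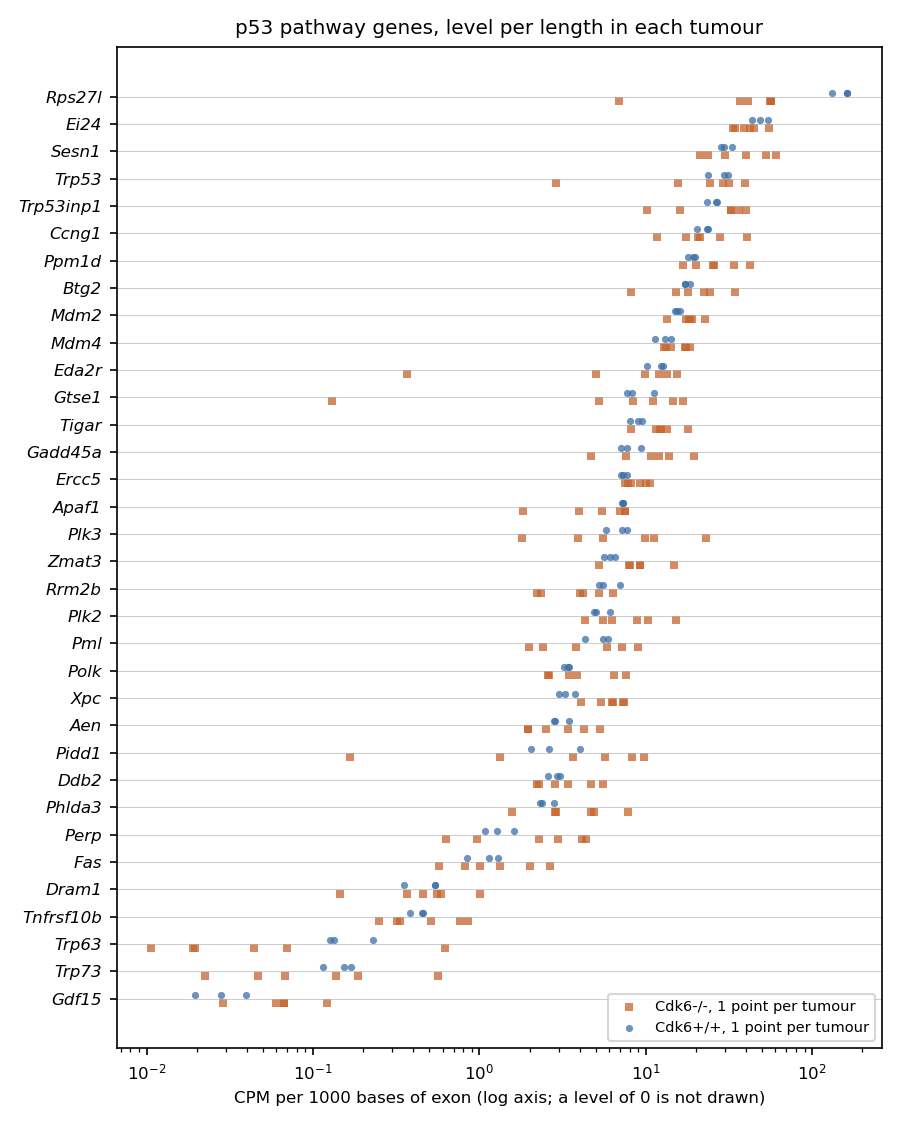
CPM per 1000 bases of exon (horizontal log axis) of the 34 genes, ordered by their mean in the Cdk6+/+ tumours; blue circles are Cdk6+/+ and orange squares Cdk6-/- tumours, 1 point each, and the level of 0 of Gdf15 in tumour 5 is not drawn. Rps27l leads the order at 152 in the Cdk6+/+ tumours, and Trp63, Trp73 and Gdf15 end it below 1.

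Cdkn1a, the cyclin-dependent kinase inhibitor p21 and the best known p53 target, is outside the 34 genes. It stood at 28.4, 25.8 and 28.7 CPM in the Cdk6+/+ tumours and at 207, 49.4, 50.1, 128, 55.1 and 41.0 CPM in Cdk6-/- tumours 1 to 6. The groups did not overlap, and tumours 1 and 4 were highest. The log2 fold change was 1.68 (SE 0.56, edgeR adjusted p = 0.126), and 1.28 without tumours 1 and 5 (SE 0.38, adjusted p = 0.0509). Over all alternatives the edgeR, DESeq2 and limma-voom adjusted p ran from 0.0294 to 0.358. Only DESeq2 on all libraries, at 0.0294, was under 0.05. Of the 50-base exon stretches of Cdkn1a, 8.49% also occur in another gene.

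Of 57 further genes of the pathway, 55 were tested and 3 were called (5.45%, against 5.19% of all genes tested): Hipk2 was higher and Cd82 and Bloc1s2 were lower in the Cdk6-/- libraries. Hipk2, a kinase that phosphorylates p53 and favours cell death, rose from 41.2 ± 5.88 CPM in the 3 controls to 128 ± 54.7 CPM in the 6 Cdk6-/- tumours (mean ± SD), with a log2 fold change of 1.63 (SE 0.37, edgeR adjusted p = 0.0311). Cd82, a membrane tetraspanin that suppresses metastasis, fell from 25.2 ± 3.28 to 9.51 ± 2.51 CPM, with a log2 fold change of -1.41 (SE 0.28, edgeR adjusted p = 0.0199). Bloc1s2, a subunit of a complex that positions lysosomes, fell from 22.04 ± 5.05 to 10.4 ± 1.93 CPM, with a log2 fold change of -1.08 (SE 0.27, edgeR adjusted p = 0.0487). Of its 50-base exon stretches, 20.3% also occur in another gene, most often Bloc1s2-ps. The groups did not overlap for 7 of the 55 genes (12.7%), these 3 among them, against 15.5% of all genes tested. Without tumours 1 and 5 the groups were apart for 19 of the 55 (34.5%, against 29.3% of all genes tested). Leaving out any 1 Cdk6+/+ tumour ended each of the 3 calls, with adjusted p up to 0.110 for Cd82, 0.168 for Hipk2 and 0.281 for Bloc1s2, and all 3 were lost with the Y-linked covariate, where the log2 fold changes were -1.80, 1.37 and -0.98. Without 1 Cdk6+/+ tumour the log2 fold changes stayed near those of all libraries, from -1.53 to -1.35 for Cd82, 1.52 to 1.73 for Hipk2 and -1.24 to -0.90 for Bloc1s2. The call of Hipk2 was also lost without Cdk6-/- tumour 3, 4 or 6, at adjusted p up to 0.0542, and that of Bloc1s2 without Cdk6-/- tumour 1, 2, 3, 4 or 6. Without tumours 1 and 5, 11 of the 55 were called, 8 higher and 3 lower (20%, against 14.3% of all genes tested). Besides Hipk2, Cd82 and Bloc1s2, these included Trp53cor1, a long noncoding RNA beside Cdkn1a, with a log2 fold change of 1.86 (SE 0.51, edgeR adjusted p = 0.0387), the ubiquitin ligase Huwe1, with 0.64 (SE 0.17, adjusted p = 0.0354), and the ubiquitin ligase Cop1, listed as Rfwd2, with -0.77 (SE 0.21, adjusted p = 0.0366). Of the 50-base exon stretches of Trp53cor1, 38.4% also occur in another gene, most often AC167363.1. The other 5, named after their values were seen, were all higher: Bbc3, which encodes the apoptosis inducer Puma, with 2.004 (adjusted p = 0.0091), Cdkn2a, the locus of the Mdm2 inhibitor p19Arf, with 1.58 (adjusted p = 0.0160), Sesn2, a sestrin that inhibits mTORC1, with 1.21 (adjusted p = 0.0280), Ddit4, another inhibitor of mTORC1, with 0.66 (adjusted p = 0.0354), and the ubiquitin ligase Trim24, with 0.66 (adjusted p = 0.0496). With all 9 libraries the edgeR adjusted p of these 5 ran from 0.224 to 0.642. In tumours 1 and 5, Ddit4 was below every control, at 55.5 and 55.7 CPM against 62.2 to 73.4 CPM. Bbc3 stood at 2.24 and 3.05 CPM there, Sesn2 at 9.57 and 10.7 CPM, and Cdkn2a at 1.28 CPM and 0 counts. None of these levels was above every control. Trim24 was above every control in tumour 1, at 149 CPM, and below every control in tumour 5, at 30.9 CPM. Ptprv and Sco2 were not tested. The authors' deposited table of differential expression lists 761 genes, where the count table has 47593, with 0 of the 34 genes and 0 of these 57 among them. With so short a list, this absence is not read as a result about these genes. DESeq2 as run here called 2894 of the 31626 genes it tested (9.15%). Among them were 2 of the 33 p53 genes it tested (6.06%) and 6 of the 56 further pathway genes it tested (10.7%).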

How the data were processed

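RNA was extracted from flash-frozen whole tumours with Trizol and made into TruSeq libraries, and single-end reads were sequenced on an Illumina instrument, per the labels' protocols and the series' design text. FastQC, Trimmomatic, HISAT2, DESeq2 and build GRCm38.p6 appear in the submitters' processing notes. The sources used here do not name the tool that assigned reads to genes, its strand setting or the annotation release. The count table holds the raw counts per gene that the authors deposited, 1 column per tumour. The authors also deposited log2 fold changes with p-values and a score computed from them; here this table served only to count which genes it lists.

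Counts were filtered with filterByExpr (18356 of 47593 genes kept), scaled by TMM and tested with edgeR 4.0.16 (R 4.3.3) in 1 fit of all 9 libraries with genotype as the only term; p-values were adjusted over all genes tested, with a threshold of 0.05, and a standard error is the log2 fold change over the square root of its F statistic. Library totals of 21386685 to 56837204 counts and a biological coefficient of variation of 0.542 (0.348 without Cdk6-/- tumours 1 and 5) set the precision. No pair of libraries in a group agreed within sampling noise (chi-square per degree of freedom of at least 31.2). The fit was also run on simulated counts, drawn independently for each gene and library. These held no tumours that stood apart as 1 and 5 did, so they do not show how the fit handles such tumours.

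The 34 genes, the other lists and the tests were chosen with earlier results of these data known. Values in every library are given for Trp53, Mdm2, Mdm4 and Cdkn1a, for each of the 34 genes called or apart with all libraries or called without tumours 1 and 5, and for those whose highest library was at least 8 times the lowest and at 5 CPM or more; others are given by range. Of the further pathway genes, the 6 with the smallest p in the fit of all libraries, among those called in either fit, are named, and 5 more were named after their values were seen. Members apart only without tumours 1 and 5 are given by range. Alternatives were DESeq2 1.42.0, limma-voom (limma 3.58.1), other scaling and filters, a Y-linked covariate, a replicate block, leaving out single tumours, and, added after the data were seen, leaving out tumours 1 and 5 together and keeping only libraries without Y-linked counts.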

Additional observations from a re-analysis of the deposited data

Results flagged for a closer look

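The level of Trp63 in Cdk6-/- tumour 5, 5.21 CPM, lay far from those of the other 5 Cdk6-/- tumours, with a gap to the nearest of them of 0.903 of the range of the group. The level of Trp73 in the same tumour, 3.14 CPM, also lay apart, with a gap of 0.697 of the range. Both gaps were past Dixon's critical value for 6 samples. In all, 41 genes were looked at, and chance flags about 1 in 20 groups.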

How the results depend on the processing

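The median log2 fold change of the tested p53 genes ran from 0.09 with limma-voom to 0.31 with the Y-linked covariate over all alternatives run. That of all genes was the larger with DESeq2 (0.34 against 0.25) and with edgeR without the filter on low counts (0.28 against 0.20). DESeq2 was also run without that filter. It was close to 0 with limma-voom (0.0006 against 0.09) and with the replicate block (0.0009 against 0.22). The number of the 34 genes called, 0, became 2 with DESeq2, 1 without the filter on low counts (1121 of all genes), 3 without Cdk6-/- tumours 1 and 5 and 2 in libraries without Y-linked counts (Rps27l and Trp63, both lower), and 0 to 3 with 1 tumour left out, 3 only without Cdk6-/- tumour 5. The further pathway genes called, 3, became 6 with DESeq2, 0 with the Y-linked covariate, 11 without tumours 1 and 5, 1 in libraries without Y-linked counts, and 0 to 3 with 1 tumour left out. All genes called, 953, became 2894 with DESeq2, 563 with at least 1 CPM in 3 libraries, 85 with the Y-linked covariate, 2643 without tumours 1 and 5, and 207 to 1506 with 1 tumour left out. Same-numbered tumours did not deviate together (correlations of -0.02, -0.10 and -0.25), where tumours of unlike number gave -0.20 to 0.31. With 3 tumours per group, these values cannot tell whether same-numbered tumours shared a litter. On tumours 1 to 3 of each group, 1 of the 34 genes (Rps27l) was called with the replicate block (753 of all genes). Without the block 1 was called (985 of all genes), and the block left 0 further pathway genes called. Small fold changes changed sign. Trp53 was 0.16 without tumours 1 and 5 and -0.43 to 0.0082 with 1 tumour left out. Gtse1 was -0.0068 without the filter, -0.78 with limma-voom, -0.18 with the replicate block, -0.13 on tumours 1 to 3 unblocked and -0.20 to 0.30 with 1 tumour left out. Plk3 was -0.13 with the replicate block, -0.052 in libraries without Y-linked counts and -0.092 to 0.63 with 1 tumour left out, and Eda2r was 0.33 with the Y-linked covariate and 0.24 in libraries without Y-linked counts. The cause was not tested. Depth limits the scarce genes: Gdf15, Trp63, Trp73, Dram1, Tnfrsf10b and Fas had 7 to 386 counts in each group.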
